A study of Mus musculus with 4 samples.

Results

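The femoral epiphysis of wild-type mice was compared between postnatal day 12 and postnatal day 10 in 2 droplet single-cell RNA libraries, 1 for each day. All cell barcodes of both days with at least 500 detected genes, at least 1000 UMIs (unique molecular identifiers, counted per gene and cell) and at most 15% mitochondrial UMIs were taken. This gave 26282 cells, 10028 from day 10 and 16254 from day 12, out of 49055 such cells in the 4 libraries of the series. The series follows this tissue from day 7 to day 12, and the day 7 and day 8 libraries were not used here. The labels give the genotype of both groups as WT and the tissue as femoral epiphysis, with no treatment. The strain, the number of animals in each library and their sex are not stated there. Per the labels' protocols the tissue was digested with enzymes, strained and cleared of red blood cells before encapsulation on a MobiDrop MobiNova-100 instrument with a 3' kit, but the same text speaks of bowel tumour tissue at the digestion step. Because each day is 1 library, no test between the days was possible, and every interval below is a 95% interval that covers counting error only. In all that follows age cannot be told apart from animal, digestion and library.

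The epiphysis is the end of a long bone, and it starts as cartilage. As a young mouse grows, chondrocytes in its centre enlarge and turn from making type II collagen to making type X collagen, blood vessels and bone-resorbing osteoclasts enter the cartilage, and osteoblasts lay bone on the remnants to form the secondary ossification centre. Marrow with its own blood-forming cells then fills the new cavities, while the outer cartilage stays as the articular surface and the growth plate.

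The 2 libraries had like depth over all cells, with a median of 7706.5 UMIs per cell on day 10 and 6563.5 on day 12, and kept UMI totals of 129832688 and 166706903. Within classes the depth was less alike: chondrocyte-like cells had a median of 17268 UMIs on day 10 and 10027 on day 12, and osteoclast-like cells 3029 and 17372. The libraries shared 282 deposited barcodes, of which 240 passed the filter in both. The 8 hemoglobin genes took 8.83% of kept UMIs on day 10 and 1.49% on day 12. Cartilage transcripts were found in cells of every kind, and at least 4 of 8 chondrocyte markers had a UMI in 37.2% of day 10 cells and 77.0% of day 12 cells. For that reason a marker counted as on in a cell only where its level was at least 2 times the mean of both libraries, a condition added after the data were seen. A cell was put in the class with the most of its 8 markers on, with at least 4 needed, and a cell that passed in more than 1 of 3 compartments (skeletal and connective, endothelial, blood) was called mixed. Class names below stand for these 20 gates, and a class was compared only on genes outside its own gate unless the gate marker is named as one. The gates left 36.1% of day 10 cells and 27.5% of day 12 cells unassigned.

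Cartilage, bone and osteoclast classes took much larger shares of the day 12 library, and erythroid cells a smaller one. Chondrocyte-like cells were 295 of the day 10 cells, or 2.94% (2.62 to 3.29), and 2753 of the day 12 cells, or 16.9% (16.4 to 17.5), a share 5.76 times higher (5.10 to 6.51). Osteoblast-like cells were 58 (0.578%, 0.439 to 0.747) and 719 (4.42%, 4.11 to 4.75), 7.65 times higher (5.85 to 10.2). Reticular stromal cells, the CXCL12-making cells that house blood progenitors in marrow, were 38 (0.379%, 0.268 to 0.520) and 284 (1.75%, 1.55 to 1.96), 4.61 times higher (3.28 to 6.65). Osteoclast-like cells were 132 (1.32%, 1.10 to 1.56) and 820 (5.04%, 4.71 to 5.39), 3.83 times higher (3.19 to 4.64). Among classes with at least 20 cells in each library these 4 had the largest ratios of day 12 to day 10. With the gate without the level condition the ratios were 2.50 for chondrocytes, 5.36 for osteoblasts, 3.13 for reticular cells and 1.07 for osteoclasts, and without the 6% of cells with the most UMIs that of osteoblasts was 15.8.

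Among blood classes, monocytes rose from 274 cells (2.73%) to 1166 (7.17%), 2.63 times higher (2.30 to 3.01), and T or NK cells from 68 (0.678%) to 340 (2.09%), 3.08 times higher (2.37 to 4.06). Erythroid cells, which were 1860 cells on day 10 (18.5%, 17.8 to 19.3), were 993 on day 12 (6.11%, 5.75 to 6.49), a share 3.04 times lower (2.81 to 3.28). Granulocyte progenitors went from 149 cells (1.49%) to 94 (0.578%), 2.57 times lower, and neutrophils from 477 (4.76%, 4.35 to 5.19) to 485 (2.98%, 2.73 to 3.26), 1.59 times lower. B-lineage cells were 8.64% and 6.55% of cells, tendon-like cells 5.84% and 4.08%, fibroblasts 3.81% and 2.67%, and pericytes or smooth muscle cells 1.68% and 0.726%. Endothelial cells were 329 (3.28%, 2.94 to 3.65) on day 10 and 436 (2.68%, 2.44 to 2.94) on day 12. Stem or multipotent progenitor cells were 53 (0.529%, 0.396 to 0.691) and 99 (0.609%, 0.495 to 0.741), with intervals that overlap. Their ratio of 1.15 became 0.338 without the level condition and 2.47 with cells thinned to 1 depth before gating, and that of endothelial cells, 0.818, became 0.398 and 1.05. Without the level condition the ratio was 1.27 for monocytes, 1.58 for T or NK cells, 0.141 for erythroid cells and 0.302 for neutrophils.

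**Figure D1:**
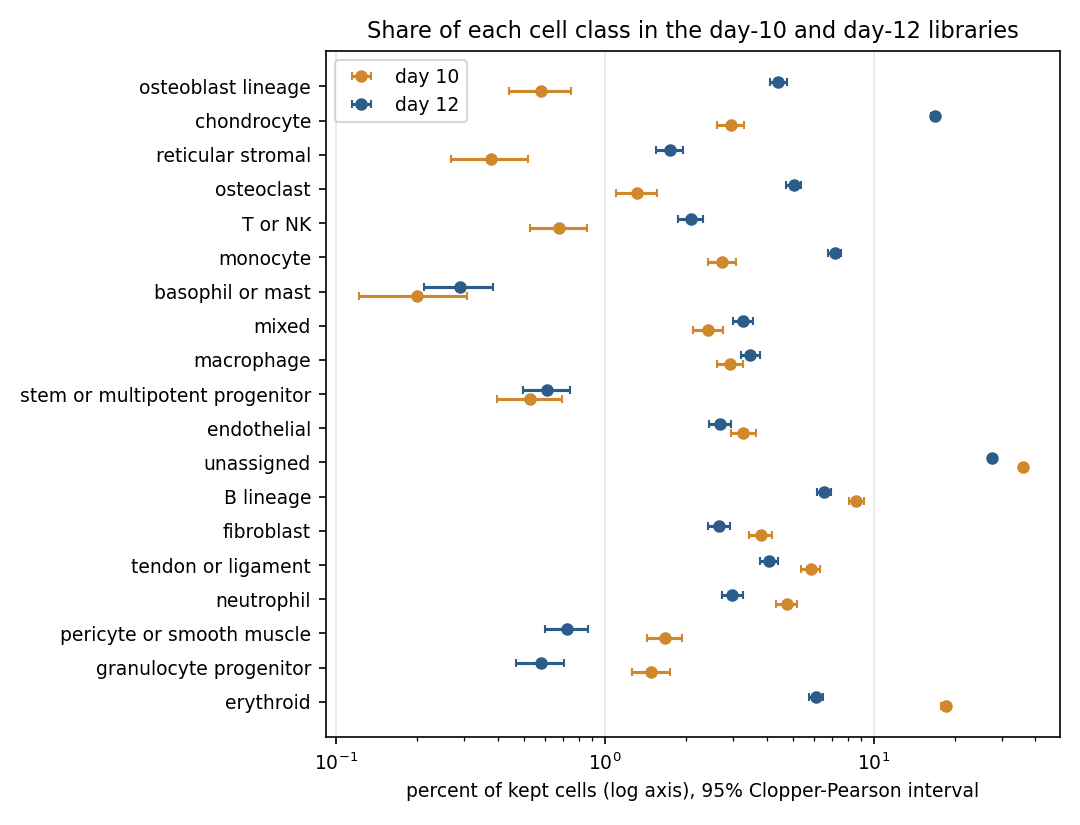
Share of each cell class among kept cells (x axis, percent on a log scale) on day 10 and day 12, for classes with at least 20 cells in each library; points are shares and bars are 95% Clopper-Pearson intervals. The osteoblast, chondrocyte, reticular and osteoclast classes at the top lie to the right on day 12, and erythroid cells at the bottom move from 18.5% to 6.11%.

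Shares of 1 library sum to a whole, and the protocol removes red cells, so the same classes were also counted among classed cells without the erythroid class. On that base chondrocytes were 7.02% and 27.3%, osteoblasts 1.38% and 7.12%, osteoclasts 3.14% and 8.12%, and monocytes 6.52% and 11.5%, all higher on day 12 as before. Macrophages changed sides: they were 2.93% and 3.48% of kept cells but 7.00% and 5.60% of classed cells without the erythroid class. Stem or multipotent progenitors also changed sides, at 1.26% and 0.981% on this base, with a ratio interval of 0.552 to 1.11 that includes equal shares. Within the skeletal and connective compartment, chondrocytes were 19.2% of cells on day 10 and 55.3% on day 12, while tendon-like cells were 38.1% and 13.3% and fibroblasts 24.8% and 8.72%. Within the blood compartment erythroid cells were 44.3% and 17.5%, monocytes 6.53% and 20.5%, and osteoclasts 3.15% and 14.4%.

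Summed over all cells, the day 12 library held more transcripts of the cartilage, bone and osteoclast programmes and fewer of the red cell, granule and pre-B programmes. Levels are CPM, counts scaled to the UMI total of the summed cells, and are compared here between days, not between genes. Of 19304 genes with at least 50 UMIs over both days, 990 (5.13%) were at least 2-fold higher on day 12 and 1827 (9.46%) at least 2-fold lower, and the median log2 ratio was 0.08. When the hemoglobin genes were left out of the total, the median moved by -0.11 and the split became 783 higher and 2206 lower. A split at the same size of difference also depended on low counts, since genes with at least 500 UMIs gave 558 higher and 651 lower.

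Gene lists were counted at 1.5-fold, past which 14.4% of all genes were higher and 18.1% lower. Of 16 cartilage matrix genes 14 rose and 0 fell, with a median log2 ratio of 1.95, and Col2a1, the main collagen of cartilage, was at 3961 on day 10 and 20277 CPM on day 12. The prehypertrophic list rose in 8 of 8 genes (median 1.84), and so did 11 of 14 osteoclast resorption genes (median 1.07), whose best known member Ctsk, the collagen-degrading protease of osteoclasts, was at 407 and 858 CPM. In the list for osteoblasts and bone matrix 9 of 15 rose and 2 fell (median 1.59), led by the mineral-binding protein Spp1 at 909 and 3851 CPM. Bglap, osteocalcin, was one of those that fell, at 53.3 and 31.1 CPM, but 2968 of its 6923 day 10 UMIs came from 1 cell, and without the top cell of each day it was at 30.5 and 29.4 CPM. Cholesterol synthesis genes rose in 13 of 14 cases (median 1.08). On the other side, all 14 late erythroid genes fell (median -2.03), all 4 measured hemoglobins fell (median -2.62, Hbb-bs 45469 and 8325 CPM), and so did 7 of 8 primary granule genes (median -1.10) and 8 of 10 pre-B genes (median -1.20).

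Many of these list differences were smaller when each class was given the same weight in both libraries. For this the class sums of each library were weighted to the mean of both libraries' class shares of UMIs, which leaves 404 genes (2.09%) at least 2-fold higher and 1149 (5.95%) lower. Of the 990 genes higher in the plain sums 320 (32.3%) stayed past 2-fold, and of the 1827 lower genes 1030 (56.4%) did. The median of the cartilage matrix list went from 1.95 to 0.30, of the osteoblast list from 1.59 to 0.35, of the resorption list from 1.07 to 0.26, and of the early erythroid list from -1.34 to -0.02. The hemoglobin list kept a median of -1.23. Other lists moved the opposite way: mature B genes went from -0.08 to 0.48, late neutrophil genes from -0.08 to 0.43, mitosis genes from -0.38 to 0.24, and metallothioneins from -0.19 to -0.78.

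**Figure D2:**
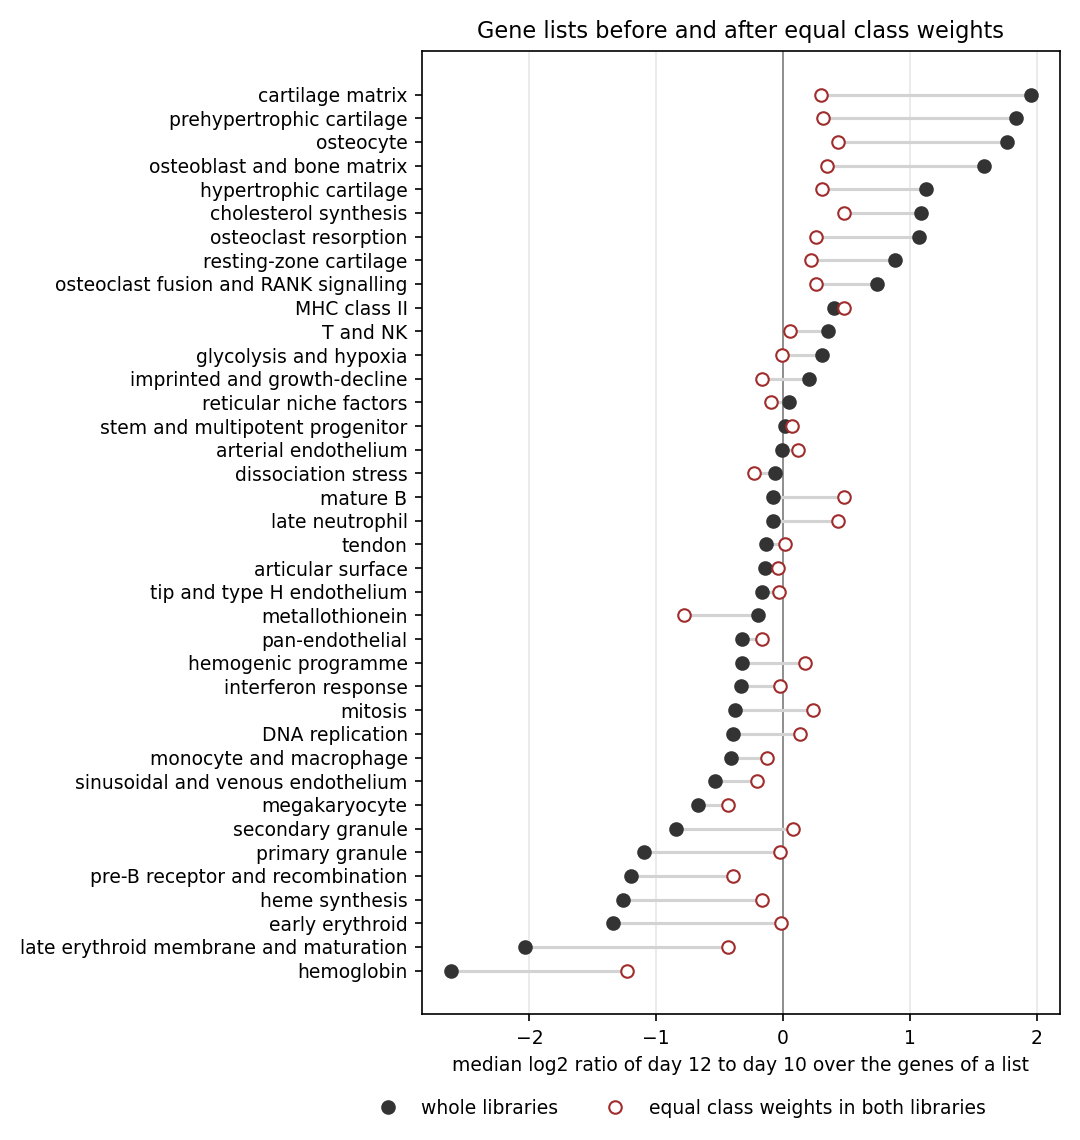
Median log2 ratio of day 12 to day 10 (x axis) over the genes of each list, for the whole libraries (filled) and with equal class weights in both libraries (open). The cartilage list moves from 1.95 to 0.30 and the early erythroid list from -1.34 to -0.02, while mature B and late neutrophil lists move to the right of 0.

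Single genes that stood out in the whole libraries included markers of rare or late cells. Mepe, a matrix protein of osteocytes, was at 0.0616 on day 10 and 3.14 CPM on day 12, Cma1, the mast cell chymase, at 0.0539 and 5.01 CPM, and Il17b, an interleukin-17 family cytokine, at 4.20 and 38.3 CPM. The fast-muscle genes Tnnc2 (a troponin) and Pvalb (parvalbumin) were at 0.555 and 6.71 CPM and 0.239 and 3.62 CPM. Svs5, a seminal vesicle protein gene, had 0 UMIs on day 10 and 725 on day 12. Its day 12 UMIs were spread over every class compared, with 118 in chondrocyte-like, 59 in B-lineage and 51 in erythroid cells. Among lower genes, Sele, the endothelial adhesion molecule E-selectin, was at 8.89 on day 10 and 1.04 CPM on day 12, Actg2, an actin of smooth muscle, at 12.2 and 1.58 CPM, and the hemoglobin gene Hba-a2 at 12154 and 1663 CPM. Apol11b, Ppm1n, Elapor2 and Slc2a7 were at 21.1 and 1.25 CPM, 25.4 and 1.53 CPM, 18.3 and 1.25 CPM and 13.4 and 0.966 CPM. Ppm1n was at least 4-fold lower in all 9 classes where it had at least 50 UMIs.

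Within chondrocyte-like cells the cartilage programme itself differed little, while some hypertrophic and imprinted genes and the summed levels of mitosis genes differed. Among 13196 genes, 473 (3.58%) rose at least 2-fold and 453 (3.43%) fell, with a median log2 ratio of 0.09, and at 1.5-fold 11.1% were higher and 9.15% lower. None of the 8 cartilage matrix genes outside the gate passed 1.5-fold (median 0.14), and neither did any of 9 resting-zone genes (median 0.02) or 8 prehypertrophic genes (median 0.02). Ucma, made by resting chondrocytes, was at 1446 on day 10 and 1311 CPM on day 12, Ihh, the hedgehog ligand of prehypertrophic cells, at 141 and 102 CPM, and Pth1r, the receptor that slows the step to enlargement, at 317 and 334 CPM. The gate markers Col2a1 and Matn3, matrilin 3, were at 55966 and 69383 CPM and 3161 and 4296 CPM. The larger share of chondrocytes on day 12 thus came with nearly the same levels of these 3 lists per cell sum. The gate puts the same cut on cartilage matrix markers on both days. Near-equal levels of the other cartilage matrix genes can thus be partly set by the gate.

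Of 11 hypertrophic genes 3 fell and 2 rose (median 0.10). Col10a1, the collagen of enlarged chondrocytes, was at 5927 (5865 to 5990.4) on day 10 and 2824 CPM (2807 to 2842) on day 12, a fall of 2.10-fold. Spp1 was at 1818 on day 10 and 1069 CPM on day 12, and Vegfa, the growth factor that draws vessels into hypertrophic cartilage, at 30.4 and 14.3 CPM; both fell. Ibsp, bone sialoprotein, rose from 105 to 245 CPM, and Sp7, the transcription factor osterix, from 88.0 to 139 CPM. The 2 rising genes are shared with osteoblasts, and both were also higher in the cells outside this class, at 425 and 1649.5 CPM for Ibsp and 21.5 and 95.5 CPM for Sp7. The part of other cells' RNA in the class values was not tested.

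Of 16 imprinted and growth-decline genes 6 fell and 1 rose in chondrocytes (median -0.50), a set of genes known to be switched down as juvenile growth slows. Meg3, a maternally expressed long RNA, was at 2766 (2723 to 2809) on day 10 and 1232 CPM (1220.2 to 1243) on day 12. Mest and Dlk1 were at 703 and 394 CPM and 1072 and 652 CPM, and Peg10 was the member that rose, at 29.0 and 50.0 CPM. Cholesterol synthesis genes rose in 7 of 14 cases and fell in 0 (median 0.56), with Hmgcs1, an early enzyme of the pathway, at 76.6 and 205 CPM. By the rule for single genes, Tnni2, a fast-muscle troponin found also in cartilage, rose from 14.0 to 73.1 CPM, the cytochrome oxidase subunit Cox4i2 from 59.2 to 179.7 CPM, and Egr2, an immediate early transcription factor, from 20.2 to 53.0 CPM. Slpi, a protease inhibitor, fell from 109.9 to 31.0 CPM, and Ccn2, connective tissue growth factor, from 279 to 113 CPM. Penk, proenkephalin, fell from 358 to 146 CPM, but 554 of its 2077 UMIs on day 10 came from 1 cell, and without the top cell of each day the log2 ratio was -0.88.

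In osteoblast-like cells few genes of bone matrix passed 1.5-fold, and the day 10 class held 58 cells, so that single cells weighed on some values. Of 10987 genes 868 (7.9%) rose at least 2-fold and 237 (2.16%) fell, with a median log2 ratio of 0.29, and with that median set to equality the split became 439 and 430. At 1.5-fold 23.9% were higher and 5.18% lower. Of 10 bone matrix genes outside the gate 2 rose, 1 fell and the median was -0.17: Spp1 was at 8929 on day 10 and 18415 CPM on day 12, Runx2, the master transcription factor of the lineage, at 738 and 1454 CPM, and Postn, periostin, at 160.5 and 62.2 CPM. Col1a1, the main collagen of bone, was at 171260.0 and 129590.0 CPM. Of 5 osteocyte genes outside the gate 1 rose and 2 fell (median -0.02). Mepe was at 0.971 (0.200 to 2.84) on day 10 and 21.9 CPM (19.7 to 24.3) on day 12, while Sost, the osteocyte inhibitor of bone formation, was at 50.5 and 3.20 CPM, with 125 of its 156 day 10 UMIs in 1 cell. The gate markers Bglap and Bglap2 also rested on that kind of cell, with 2968 of 5780 and 1581 of 2882 day 10 UMIs in 1 cell.

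Single genes named by the rule were mostly from outside the lists. Serpine2, a protease inhibitor, rose from 776 to 1967 CPM, the matrix protein Tnc, tenascin C, from 532 to 1150.5 CPM, and Tox, a nuclear protein, from 72.5 to 161 CPM. Gadd45g, a stress response gene, fell from 148 to 43.9 CPM, and Adarb2, an RNA-binding relative of editing enzymes, from 122 to 31.5 CPM. Notum, an enzyme that inactivates Wnt ligands, was at 51.1 and 27.3 CPM. The dissociation stress list, immediate early and heat shock genes that tissue digestion is known to switch on, fell in 10 of 14 genes and rose in 0 (median -1.47), with Fos at 1932 on day 10 and 433 CPM on day 12 and Atf3 at 145 and 17.1 CPM. Its part in the other osteoblast values was not tested.

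In osteoclast-like cells the resorption genes outside the gate had a median ratio near equality, while the gate markers named below were lower on day 12. The 132 cells of day 10 had a median of 3029 UMIs but 3506214 UMIs in sum, so the day 10 values rest mostly on the larger cells. Of 10875 genes 433 (3.98%) rose at least 2-fold and 356 (3.27%) fell, with a median log2 ratio of 0.12, and at 1.5-fold 12.5% were higher and 7.62% lower. Of 10 resorption genes outside the gate 1 rose, Atp6v1c1, a subunit of the proton pump that acidifies the resorption pit, from 392 to 592 CPM; the median was 0.03. Of 7 fusion and RANK signalling genes 1 rose, and Nfatc1, the transcription factor that drives osteoclast formation, was at 1388 on day 10 and 1425 CPM on day 12, with its upstream receptor Tnfrsf11a, RANK, at 432 and 378 CPM. The gate markers Ctsk, Acp5 and Mmp9 were each lower on day 12, at 9889.9 and 7368 CPM, 4826 and 3082 CPM and 4953 and 3451 CPM.

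Of 4 metal-binding metallothionein genes 3 fell in osteoclasts, with a median of -1.58. Mt1 was at 1812 (1767 to 1857) on day 10 and 715 CPM (702 to 729) on day 12, and Mt3 at 285 and 80.8 CPM. Mt2 was at 259 and 62.8 CPM, but 665 of its 907 day 10 UMIs were in 1 cell, and without the top cell of each day its values were 70.7 and 57.6 CPM. With the gate without the level condition the median of the list was -0.50. Lsmem1, a small membrane protein gene, fell from 167 to 15.9 CPM and Slc49a4, a membrane transporter gene, from 157 to 35.1 CPM, while Fnbp1l, which helps bend membrane during uptake, rose from 290.1 to 606 CPM and Pik3r5, a lipid kinase subunit, from 41.1 to 84.6 CPM.

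The connective classes shared lower stress genes on day 12 and otherwise differed in few genes. At least 2-fold higher on day 12 were 272 of 11523 genes (2.36%) in tendon-like cells, 362 of 10662 (3.4%) in fibroblasts and 350 of 7887 (4.44%) in pericytes or smooth muscle cells, and at least 2-fold lower 283 (2.46%), 202 (1.89%) and 213 (2.7%). With the median set to equality the pericyte count of higher genes was 218. Of 5 tendon genes outside the gate 2 rose, Chad, a cartilage and tendon matrix protein, from 299 to 587 CPM and Vit, vitrin, from 33.6 to 103 CPM. The cartilage matrix list had a median of 1.20 in tendon-like cells. The part of other cells' RNA in the Chad and Vit values was not tested. The gate marker Tnmd, tenomodulin, was at 2278 and 2166 CPM. Thy1, a surface protein of stromal cells, rose from 25.6 to 66.0 CPM in tendon-like cells, Ly6c1 from 11.2 to 49.5 CPM, and Clu, clusterin, from 116 to 283 CPM. Nfatc2, a calcium-regulated transcription factor, fell from 348 to 89.0 CPM.

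In fibroblasts Pdgfd, a platelet-derived growth factor, rose from 27.7 to 101 CPM, and the lipid transporter Abca8a from 68.9 to 211 CPM. The neutrophil-attracting chemokine Cxcl1 fell from 67.8 to 18.9 CPM and Ackr3, a scavenging receptor for CXCL12, from 175 to 69.0 CPM. Pericytes or smooth muscle cells fell in Mfap5, a microfibril protein, from 227 to 31.0 CPM, in Ccn3 from 590.1 to 133 CPM, and in Actg2 from 491 to 119 CPM. The stress list fell in 9 of 15 genes in fibroblasts (median -1.13, Fos 3882 and 1211 CPM), 8 of 15 in tendon-like cells (median -0.68) and 7 of 14 in pericytes (median -0.71), where 5.88%, 6.93% and 7.82% of all genes were 1.5-fold lower and 11.1%, 7.62% and 16.6% higher. Its part in the fall of Cxcl1 and the other named genes was not tested.

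In endothelial cells genes of sinusoids and veins moved in both directions. Of 10422 genes 240 (2.3%) rose at least 2-fold and 283 (2.72%) fell, with a median log2 ratio of 0.12, and at 1.5-fold 10.3% were higher and 7.16% lower. Stab2, a scavenger receptor typical of sinusoids, was at 21.1 (17.0 to 25.8) on day 10 and 92.6 CPM (84.0 to 102) on day 12, 4.36 times higher. Stab1, its relative, was at 113 and 229 CPM, Ephb4, a venous receptor, at 77.4 and 167 CPM, and Nr2f2, the transcription factor of venous identity, at 193 and 328 CPM. Sele was at 127 (117 to 139) on day 10 and 16.4 CPM (12.9 to 20.6) on day 12, 7.68 times lower, and Selp, P-selectin, at 161 on day 10 and 48.4 CPM on day 12. Vwf, von Willebrand factor, was at 100.0 and 59.8 CPM, and Ackr1, the chemokine-binding receptor of venules, at 39.8 and 25.0 CPM. In all 4 of the 12 sinusoidal and venous genes rose and 5 fell, so the list median was -0.01 although 9 of its genes passed 1.5-fold; without the level condition in the gate the median was 0.62.

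The other vessel lists were flatter. Of 14 arterial genes 1 rose (median 0.01), with the gap junction gene Gja4 at 81.0 and 93.3 CPM and the Notch ligand Dll4 at 100.5 and 88.2 CPM. Of 9 genes of tip and type H vessels 1 fell (median -0.41), Esm1, a tip cell product, at 169.6 (158 to 182) on day 10 and 53.0 CPM (46.5 to 60.1) on day 12. Cldn5, the tight junction claudin of endothelium, rose from 156 to 308 CPM, and the gate marker Cdh5, VE-cadherin, was at 1766 and 2012 CPM.

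Genes of the hemogenic programme, by which some endothelium can turn into blood cells, rose in 2 of 14 cases and fell in 0 (median 0.19). The rises were Spi1, the myeloid factor PU.1, from 10.8 to 28.9 CPM, and Ptprc, the pan-leukocyte antigen CD45, from 23.8 to 48.6 CPM. In the cells outside the endothelial class Spi1 was at 69.1 and 131 CPM and Ptprc at 156 and 252 CPM, and the part of leukocyte RNA in the endothelial values was not tested. Runx1, the factor on which blood emergence from endothelium depends, was at 36.8 (31.4 to 43.0) on day 10 and 41.6 CPM (35.9 to 48.0) on day 12, with intervals that overlap. Gata2 and Kit were at 48.5 and 65.2 CPM and 50.8 and 69.4 CPM. Of 12 stem and progenitor genes 3 rose, among them Mllt3, a regulator of stem cell maintenance, from 46.5 to 159 CPM, while Mecom was at 545 and 449 CPM and Cd34 at 618 and 734 CPM.

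A further named endothelial rise was Egfem1, an EGF-like domain gene, at 14.4 (11.1 to 18.4) on day 10 and 139 CPM (129 to 150.5) on day 12, 9.52 times higher. Named falls were Tmx4, a redox protein of the endoplasmic reticulum, at 174 and 52.3 CPM and Pcp4l1, a calmodulin-binding peptide, at 112 and 44.7 CPM. The stress list fell in 9 of 15 endothelial genes and rose in 1 (median -0.75, Fos 2283 and 692 CPM), and since Sele and Selp are known to be induced by inflammation, these values stand beside theirs; the part of stress in the selectin values was not tested.

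**Figure D3:**
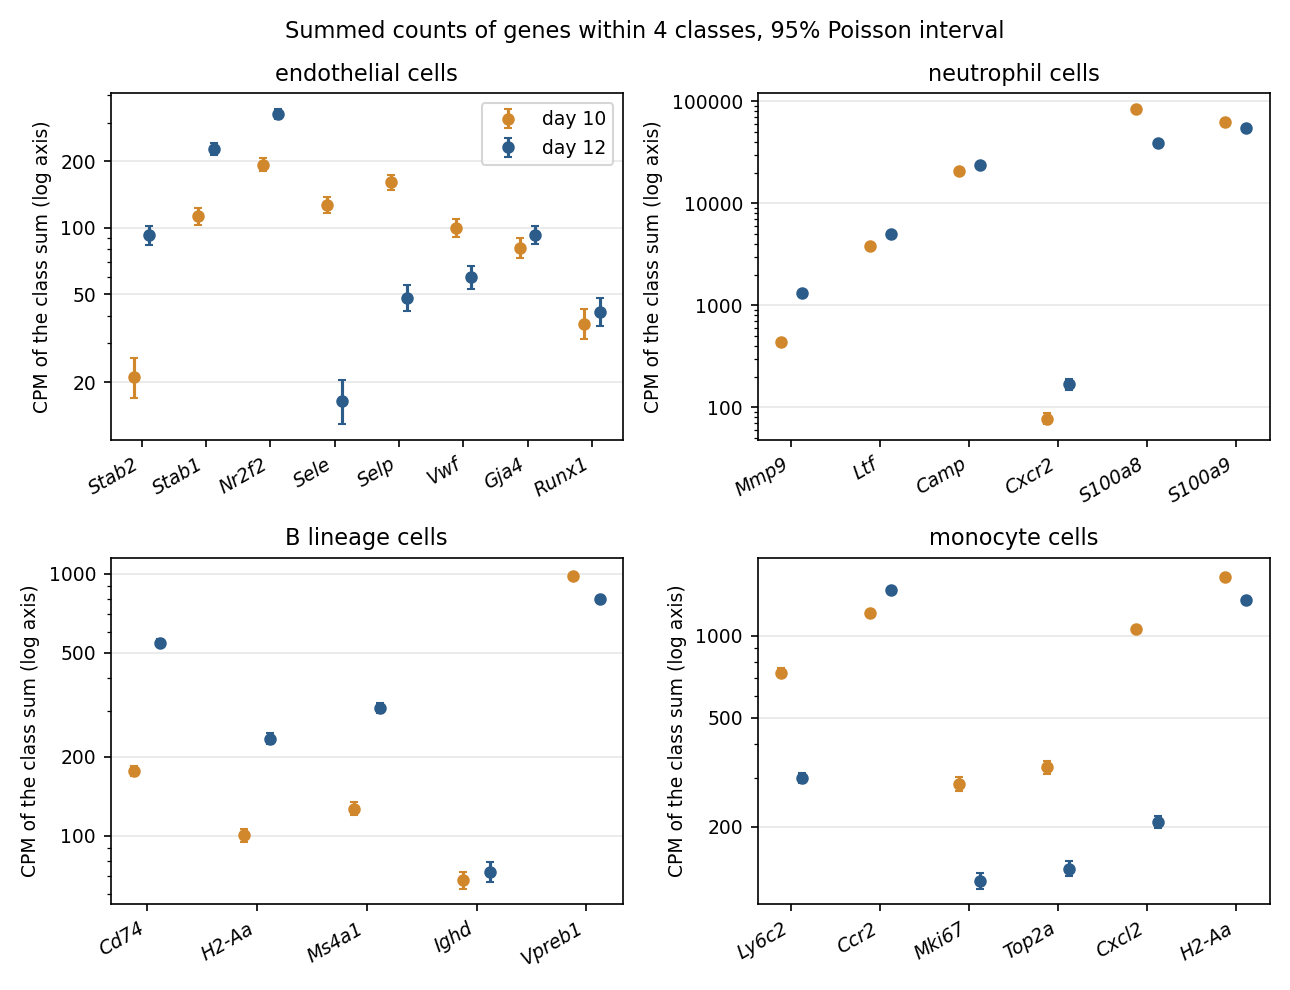
CPM of summed counts (y axes, log scales) for genes within the endothelial, neutrophil, B-lineage and monocyte classes on day 10 and day 12, with 95% Poisson intervals. In endothelial cells Stab2 rises and Sele and Selp fall, while the intervals of Runx1 overlap. Ltf, Camp and Cxcr2 in neutrophils and Ly6c2 and Ccr2 in monocytes are gate markers of their class.

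Erythroid cells on day 12 had lower levels of hemoglobin transcripts. The median cell of this class took 47.7% of its UMIs from hemoglobin genes on day 10 and 30.5% on day 12. Of 10971 genes 1724 (15.7%) rose at least 2-fold and 260 (2.37%) fell, with a median log2 ratio of 0.53. With hemoglobin left out of the total the split was 717 and 406, and with the median set to equality 315 and 598. Hbb-bs, the adult beta globin, was at 189630.0 on day 10 and 127980.0 CPM on day 12, and Hba-a2, an alpha globin with a near-identical copy whose reads counting could split, at 46288 and 22134 CPM. The early erythroid list rose in 3 of 11 genes and fell in 2 (median 0.31), and the late list fell in 3 of 8 and rose in 0 (median -0.41), where 45.6% of all genes were 1.5-fold higher and 4.43% lower.

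Bpgm, which makes the metabolite that loosens oxygen from hemoglobin, was at 483 (473 to 493) on day 10 and 203 CPM (192 to 216) on day 12, and Bnip3l, which clears mitochondria from maturing red cells, at 421 and 234 CPM. Car1 and Car2, the carbonic anhydrases of red cells, were at 487 and 223 CPM and 5973 and 3755 CPM. Gfi1b, a transcription factor of early erythroid cells, was at 41.7 and 67.3 CPM, and Samd14, which enhances Kit signalling in these cells, at 37.7 and 85.7 CPM. Heme synthesis genes did not pass 1.5-fold in any of 11 cases (median 0.03), which lies below the class median of 0.53. Among single genes Elapor2 had 1709 UMIs on day 10 and 1 on day 12, and Apol11b was at 123 and 22.6 CPM; Usp6nl, a regulator of endocytosis, rose from 44.5 to 129.6 CPM.

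Neutrophils of day 12 had higher levels of most late maturation genes, in a class where the median gene was also higher. Granule genes of the stage before that lie outside the gate were at near-equal levels. Of 7574 genes 996 (13.2%) rose at least 2-fold and 118 (1.56%) fell, with a median log2 ratio of 0.47, and with that median set to equality 243 and 320; at 1.5-fold 39.9% were higher and 3.62% lower. Of 9 late neutrophil genes outside the gate 6 rose and 2 fell (median 0.83, with a class median of 0.47). Mmp9, the gelatinase of tertiary granules, was at 435 (413 to 458) on day 10 and 1323 CPM (1269.8 to 1377) on day 12. Of its 2351 day 12 UMIs 486 came from 1 cell, and without the top cell of each day it was at 429.5 and 1061 CPM. Csf3r, the receptor for the growth factor G-CSF, was at 80.3 and 195 CPM, Il1b, the cytokine interleukin-1 beta, at 49.7 and 136 CPM, and the gate marker Cxcr2, the receptor that lets neutrophils leave marrow, at 77.5 and 168 CPM. S100a8, a subunit of the metal-binding protein calprotectin, was at 83308 and 39118 CPM, and its partner S100a9 at 63354 and 54674 CPM. None of 6 secondary granule genes outside the gate passed 1.5-fold (median 0.11), which lies below the class median of 0.47. Camp, Ltf, Ngp and Lcn2 are gate markers and were left out of this count.

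Stefin-type protease inhibitors fell in both granulocyte classes. Stfa1 was at 57271 on day 10 and 18701 CPM on day 12 in neutrophils and 13716 and 2285 CPM in granulocyte progenitors, and Cstdc4 at 29111 and 11464 CPM and 3018 and 495 CPM; these genes are a family of close copies, so the split of reads among them is uncertain. Msmp, a secreted microseminoprotein gene, was at 2105 on day 10 and 11.8 CPM on day 12 in neutrophils, but 2819 of its 6897 day 10 UMIs came from 1 cell, and without the top cell of each day its values were 1247 and 10.8 CPM. Of 7896 genes in granulocyte progenitors 302 (3.82%) were past 2-fold on the higher side and 157 (1.99%) on the lower, and with the median set to equality 120 and 250. Of 14 DNA replication genes 4 rose there and 0 fell (median 0.41, with a class median of 0.25). Among the rises were Mcm2 and Mcm3 of the replicative helicase, at 97.0 and 224 CPM and 153 and 331 CPM. In this class 19.1% of all genes were 1.5-fold higher and 4.6% lower.

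In monocytes the cell division genes fell together. Of 10480 genes 682 (6.51%) rose at least 2-fold and 413 (3.94%) fell, with a median log2 ratio of 0.12, and at 1.5-fold 17.1% were higher and 9.59% lower. All 16 mitosis genes fell (median -1.18), as did 9 of 14 DNA replication genes (median -0.74). Mki67, the proliferation antigen, was at 286 (269.8 to 303) on day 10 and 127 CPM (118 to 135) on day 12, and Ccnb2, cyclin B2, at 218 and 46.2 CPM. The gate marker Ly6c2, which marks the inflammatory monocytes that leave marrow, was at 731 and 301 CPM. Ccr2, the receptor that guides their exit and also a gate marker, was at 1212 and 1471 CPM. Slfn5, an interferon-regulated gene, rose from 35.0 to 121 CPM, and Txnip, a brake on glucose uptake, from 159.8 to 376 CPM. Of 13 interferon response genes 5 rose and 2 fell (median 0.31). The chemokine gene Cxcl10 had the lowest ratio among named genes, at 119 and 6.88 CPM, but 292 of its 468 day 10 UMIs came from 1 cell, and without the top cell of each day it was at 45.1 and 5.74 CPM. The other named falls were Tnip3, an inhibitor of NF-kB signalling, from 142 to 55.2 CPM, the chemokine Cxcl2 from 1055 to 208 CPM, Tnfaip3, which damps NF-kB signalling, from 383 to 109 CPM, and Clec4e, a receptor for damaged cells and fungi, from 203 to 79.1 CPM.

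In macrophages MHC class II genes, which present antigen to T cells, rose together, and several chemokine genes fell. Of 10525 genes 346 (3.29%) rose at least 2-fold and 323 (3.07%) fell, with a median log2 ratio of 0.12, and at 1.5-fold 12.3% were higher and 8.41% lower. All 7 MHC class II genes measured rose (median 0.73), with Cd74, the invariant chain, at 380.2 (364 to 396) on day 10 and 820.1 CPM (796 to 844) on day 12 and H2-Aa at 350.1 and 581 CPM. Of 7 monocyte and macrophage genes outside the gate 4 fell and 2 rose (median -0.66). The falls included Cd163, the hemoglobin scavenger receptor of resident macrophages, from 197 to 66.0 CPM and F13a1, coagulation factor XIII, from 2143 to 827 CPM. Ccr2, typical of monocyte-derived cells, rose from 125 to 274 CPM, and Vcam1, found on macrophages of marrow, from 61.3 to 138 CPM. The monocyte-attracting chemokines Ccl2 and Ccl7 fell from 556 to 175 CPM and from 352 to 93.8 CPM, and Cxcl2 from 883 to 254 CPM. The stress list fell in 8 of 15 genes and rose in 0 (median -0.64), with Atf3 at 428 and 79.5 CPM, and its part in the chemokine values was not tested. Retnla, a product of alternatively activated macrophages, was at 36.7 and 423 CPM, but 1996 of 2348 UMIs on day 12 came from 1 cell, and without the top cell of each day its values were 25.4 and 63.8 CPM.

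B-lineage cells of day 12 had higher levels of mature B and MHC class II genes and nearly equal levels of the pre-B genes. Of 11683 genes 448 (3.83%) rose at least 2-fold and 377 (3.23%) fell, and at 1.5-fold 11.9% were higher and 8.02% lower. Of 10 mature B genes 7 rose and 0 fell (median 1.00). Ms4a1, the antigen CD20, was at 127 (120.2 to 134) on day 10 and 306 CPM (293 to 319) on day 12, Iglc2, a lambda light chain segment, at 33.2 and 89.2 CPM, and Fcer2a, the antigen CD23 of mature B cells, at 0.937 and 7.02 CPM. Ighd and Ighm, the heavy chain genes of IgD and IgM, were at 67.5 and 72.8 CPM and 2034 and 1979 CPM. Of 9 MHC class II genes 7 rose and 0 fell (median 1.23), with Cd74 at 176 (168 to 184) on day 10 and 546 CPM (529 to 564) on day 12 and H2-Aa at 100.0 and 234 CPM. Of 8 pre-B genes 1 fell, Rag2, a subunit of the recombinase that joins antibody gene segments, from 102 to 53.1 CPM (median -0.30), and Vpreb1, a surrogate light chain, was at 982 and 801 CPM. Slc2a7, a hexose transporter, fell from 100.2 to 8.77 CPM, and Hes1, a Notch target, from 421 to 131 CPM.

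T or NK cells were few on day 10 (68 cells), and their gene values are coarse. Of 7067 genes 615 (8.7%) rose at least 2-fold and 167 (2.36%) fell, and at 1.5-fold 20.5% were higher and 7.44% lower. Of 4 T and NK genes outside the gate 1 rose, Gzma, the killing protease granzyme A, from 1123 to 1707 CPM, and 1 fell, Trbc2, a T cell receptor constant segment, from 748 to 349 CPM. MHC class II genes fell in 4 of 5 cases (median -1.26), and between 93.1% and 96.8% of the day 10 UMIs of H2-Aa, H2-Ab1, H2-Eb1 and Cd74 in this class came from 1 cell.

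In stem or multipotent progenitor cells, 53 on day 10 and 99 on day 12, few listed stem and progenitor genes outside the gate passed 1.5-fold. Of 7681 genes 270 (3.52%) rose at least 2-fold and 148 (1.93%) fell, and at 1.5-fold 13.2% were higher and 5.96% lower. Of 8 stem and progenitor genes outside the gate 1 rose and 0 fell (median 0.12), and Mllt3 was at 94.6 (79.4 to 112) on day 10 and 107 CPM (91.4 to 123) on day 12. Mecom, a transcription factor of long-lived stem cells, was at 106 and 129 CPM. Hlf, another such factor, was at 105 and 118 CPM, but it is a gate marker, so its level is partly set by the gate. Of 12 hemogenic genes 1 rose (median 0.05), Tal1, a factor needed for blood formation, from 40.1 to 78.3 CPM, and Runx1 was at 631 and 682 CPM. Pre-B genes rose in 3 of 5 cases (median 0.83), among them Dntt, the enzyme that adds bases at antibody gene joints, from 142 to 253 CPM. Dntt had UMIs in 9 day 10 and 13 day 12 cells, with 91 of 205 and 152 of 420 UMIs in 1 cell. For other genes of the list, 1 day 12 cell held 60 of 77 UMIs of Vpreb3 and 173 of 383 of Bach2. The list value thus rests on few cells. Col10a1 in this class was at 12.4 and 1775 CPM, but 2877 of its 2948 day 12 UMIs lay in 1 cell.

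Cell division was counted in single cells as well, after thinning every cell to 1000 UMIs, as the share with at least 2 of 16 mitosis genes. In monocytes this share was 24.1% (19.1 to 29.6) on day 10 and 8.15% (6.64 to 9.87) on day 12, and in erythroid cells 51.6% (49.3 to 53.9) and 70.1% (67.1 to 72.9). In osteoblasts it was 8.62% (2.86 to 19) and 19.2% (16.4 to 22.3), and in B-lineage cells 35.1% and 35.4%. In neutrophils the shares were 22.0% (18.4 to 26.0) and 14.8% (11.8 to 18.3). The intervals of the days do not overlap in monocytes or in neutrophils. Without thinning the shares were 65.3% and 27.7% in monocytes, 84.4% and 84.0% in erythroid cells, 67.2% and 67.5% in osteoblasts, 72.2% and 54.2% in B-lineage cells, and 54.5% and 30.7% in neutrophils. In erythroid cells the UMIs thinned included those of hemoglobin, which took a larger part on day 10, so the depth over other genes was not matched and no order is read from their shares.

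In chondrocytes the summed levels and the cell shares were less alike. Of 16 mitosis genes 15 rose and 0 fell in the class sums (median 1.30): Top2a, the topoisomerase of dividing cells, was at 37.4 (32.6 to 42.8) on day 10 and 88.2 CPM (85.1 to 91.3) on day 12, and Ccnb1, cyclin B1, at 7.25 and 26.9 CPM. The share of chondrocytes with mitosis transcripts was 6.78% (4.19 to 10.3) and 9.30% (8.24 to 10.4), with intervals that overlap, and 55.6% and 39.0% without thinning. The list median was 0.71 with 3 markers needed for a class and 0.22 without the level condition in the gate. Osteoblasts also had 15 of 16 genes higher (median 1.21), where 23.9% of all genes were, and 83 of 130 day 10 UMIs of Cenpf came from 1 cell. Osteoclasts had shares of 40.2% and 20.9% (77.3% and 64.4% without thinning) but 0 of 16 genes past 1.5-fold in the sums (median 0.12), so no order is read for them. Endothelial cells had 17.9% and 20.9% (65.7% and 49.5% without thinning), with 8 of 16 genes higher in the sums and 0 lower (median 0.66), and stem or multipotent progenitors 34.0% (21.5 to 48.3) and 48.5% (38.3 to 58.7).

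**Figure D4:**
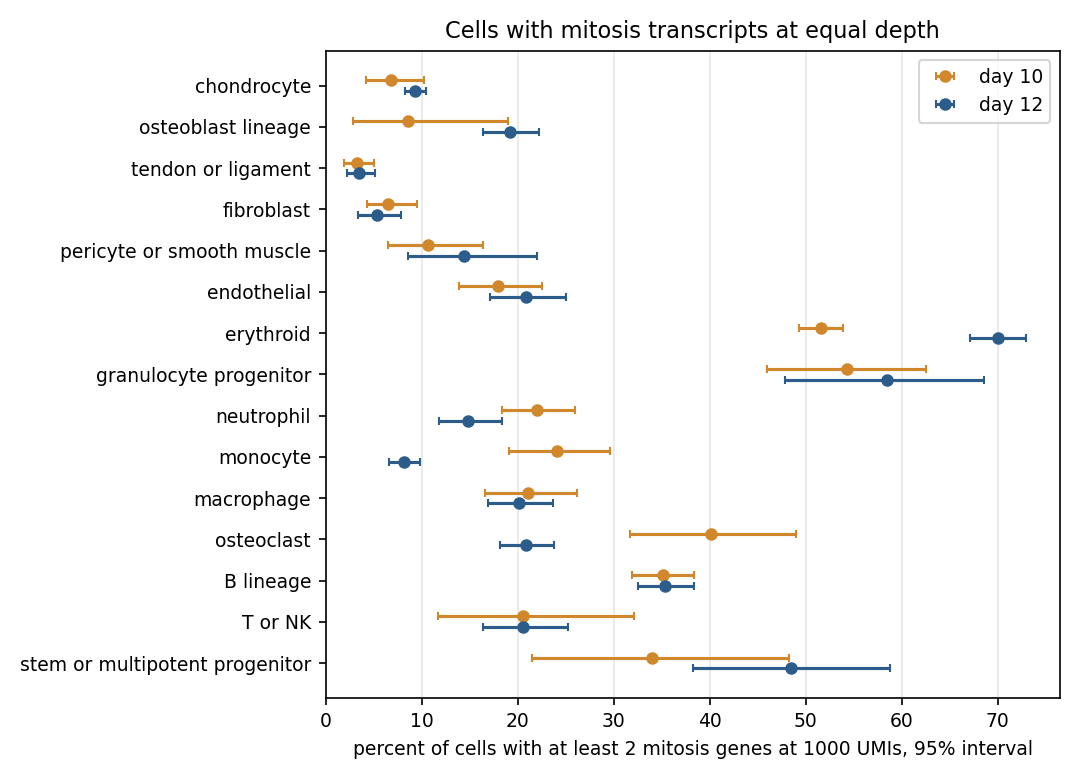
Share of cells with at least 2 of 16 mitosis genes after thinning to 1000 UMIs (x axis, percent) for each class on day 10 and day 12, with 95% Clopper-Pearson intervals. Monocytes lie at 24.1% and 8.15%, while chondrocyte intervals overlap. Erythroid cells lie at 51.6% and 70.1%, with hemoglobin UMIs among those thinned.

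Transcripts made by one kind of cell also differed in the sums of other kinds. The cartilage matrix list, whose median was 0.14 in chondrocytes, had medians from 1.20 (tendon-like cells) to 3.09 (stem or multipotent progenitors) in the 14 other classes compared, and Col2a1 was at 167 and 1858 CPM in osteoclasts and 412 and 2508 CPM in endothelial cells. The hemoglobin list was lower in every class compared, from -0.59 in osteoblasts to -2.72 in stem or multipotent progenitors; the osteoblast value turned to 0.78 with 5 markers needed and to 0.22 without the level condition in the gate, and that of T or NK cells (-1.30) to 0.40 without it. Values of cartilage and hemoglobin genes outside their own classes are therefore given here only as measured.

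A few genes differed the same way in every class. Of 5431 genes with at least 50 UMIs in each of the 15 classes compared, 3 were at least 2-fold higher in all of them and 11 lower in all. The higher ones were Rps6, a protein of the small ribosomal subunit, at 45.0 on day 10 and 273 CPM on day 12 over the whole libraries, the Y-linked helicase Ddx3y, and the predicted gene Gm47283. The lower ones were led by Sec61g, a subunit of the channel that passes new proteins into the endoplasmic reticulum, at 252 and 24.0 CPM, and included the ribosomal protein genes Rps28 (1424 and 489.9 CPM), Rps29 (2527 and 913 CPM), Rpl38 (1194 and 515 CPM) and Rpl39 (2116 and 768 CPM) and the respiratory chain genes Ndufb4 (75.8 and 25.1 CPM) and mt-Nd3 (308 and 87.8 CPM). The rest were Atp5md, Isca1, Rbis and ENSMUSG00002076173. A wider rule took genes with at least 50 UMIs in at least 5 classes and a 4-fold difference in each class so measured. It gave 6 higher genes, among them Uty and Eif2s3y, and 11 lower genes, among them Ppm1n. The counting program and annotation behind each library were not stated in the sources at hand. Reads of ribosomal protein genes can be shared with their many pseudogenes.

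The sex-linked transcripts of the libraries differed in kind. The Y-linked genes Ddx3y, Eif2s3y, Kdm5d and Uty together had 34 UMIs on day 10 and 27005 on day 12, and Xist, the RNA that silences an X chromosome in female cells, had 56520 and 43633. On day 10, 7547 cells (75.3%) had UMIs of Xist and none of the Y-linked genes, and 1 cell had the reverse. On day 12, 6491 cells (39.9%) had Xist only and 3943 (24.3%) Y-linked genes only. Cells with UMIs of both were 32 (0.319%) on day 10 and 2556 (15.7%) on day 12. Of day 12 cells with either alone, 37.8% (36.9 to 38.7) were on the Y-linked side, from 28.9% (26.9 to 30.9) in chondrocytes to 54.4% (41.9 to 66.5) in stem or multipotent progenitors and 51.4% (45.7 to 57.1) in fibroblasts. The day 10 library thus held almost no cells with Y-linked transcripts and the day 12 library cells of both kinds. The gene lists described within classes and the named genes of each class were therefore compared again among cells with Xist only, a choice made after seeing the data. Given the day 12 cells with both, a cell with Xist only cannot be taken for certain as a female cell. The part of stray RNA in this comparison was not tested. Of 149 named genes 141 stayed within 1.5-fold of their ratio over all cells, 8 moved further and 0 turned. Of 84 list medians 76 stayed and 7 moved. The 1 that turned was the hemoglobin list in fibroblasts (-0.69 over all cells and 0.049 among these). Only the 48 list medians past 1.5-fold over all cells could count as turned, and smaller ones that changed sign count as stayed or moved. Stab2 in endothelial cells had a log2 ratio of 2.12 over all cells and 1.15 among cells with Xist only, and Retnla in macrophages 3.52 and 1.38. For class shares and whole-library values the part of this difference was not tested.

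**Figure D5:**
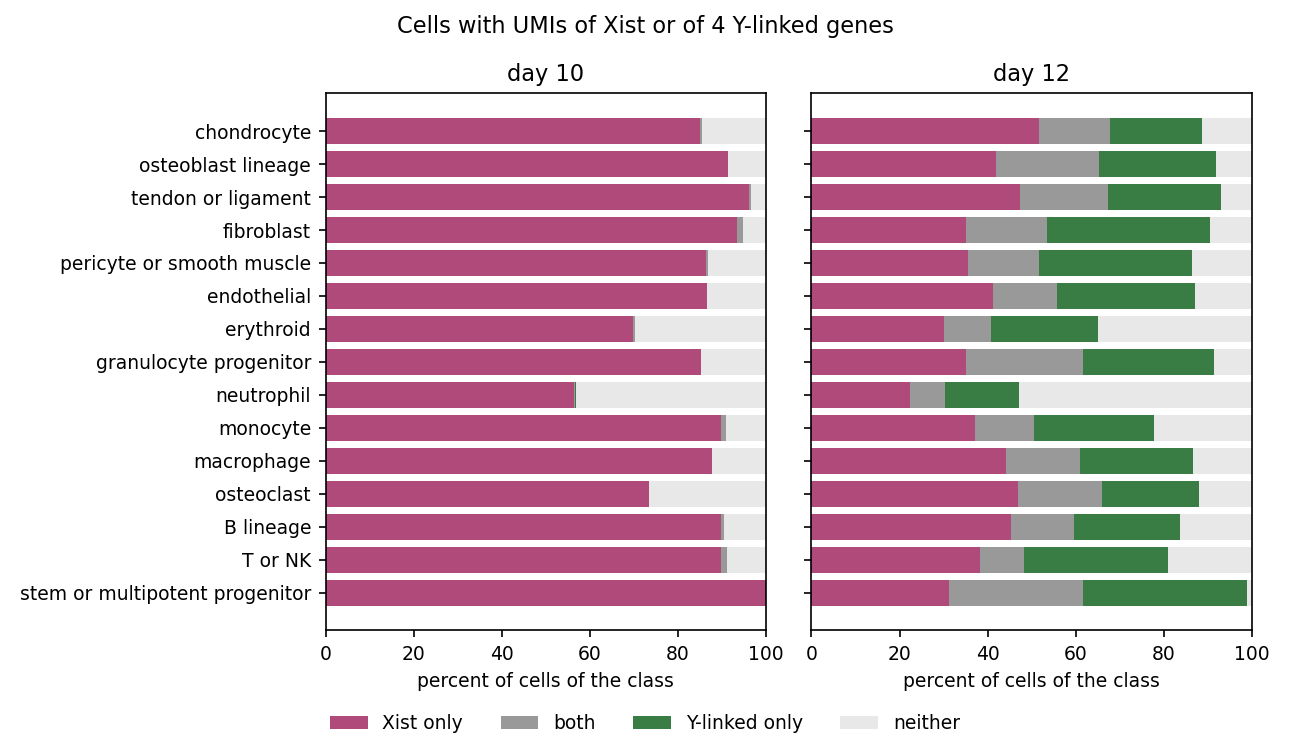
Share of cells of each class (x axis, percent) with UMIs of Xist only, of 4 Y-linked genes only, of both or of neither, on day 10 and day 12. Day 10 bars hold almost no Y-linked cells, while on day 12 the Y-linked part is present in every class.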

How the data were processed

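Per the labels' protocols, femoral epiphysis cells were encapsulated with a MobiDrop 3' kit. The deposited values are UMI counts per gene and barcode for 55416 features, not normalized by the authors as the whole numbers show, and the submitters' processing notes name GRCm39; the counting program, annotation and cell-calling rule are, in the sources used here, not given. From these counts, cells were filtered and gated, counts were summed per library and class, and CPM with exact Poisson intervals, Clopper-Pearson shares and log2 ratios with 1 UMI added to each sum were computed (Python 3.11.15, numpy 2.4.6, scipy 1.17.1, pandas 2.3.3), with code checked on simulated data. No doublet caller was run; an alternative left out the 6% of cells with the most UMIs in each library. Genes needed 50 UMIs over both sums. Genes named outside the lists were the 10 (whole library) or 5 (class) with the largest and smallest ratio among those with at least 500 UMIs, leaving out predicted genes, gate markers and, in a class, genes under 2 times the level of the other cells; the text gives part of them. Members, gates and lists were chosen with earlier results of these data known, the number of markers needed and the level condition after the data were seen.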

Additional observations from a re-analysis of the deposited data

Results flagged for a closer look

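MHC class II genes differed in opposite directions in the lymphoid classes. The log2 ratio (day 12 to day 10) had a median of 1.23 in B-lineage cells and -1.26 in T or NK cells, and the difference between the classes was not tested. The T or NK value rests on 1 day 10 cell, which held 153 of 158 UMIs of H2-Ab1, 134 of 144 of H2-Aa, 123 of 130 of H2-Eb1 and 133 of 141 of Cd74.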

How the results depend on the processing

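No paired analysis was possible because each day is 1 library, and for the same reason no library could be left out. Ratios of class shares (day 12 to day 10) moved beyond their counting interval as follows. Without the level condition they were 2.50 for chondrocytes, 5.36 for osteoblasts, 3.13 for reticular cells, 1.07 for osteoclasts, 1.27 for monocytes, 1.58 for T or NK cells, 0.141 for erythroid cells, 0.235 for granulocyte progenitors, 0.302 for neutrophils, 0.338 for stem or multipotent progenitors, 0.398 for endothelium, 0.402 for fibroblasts, 0.411 for B-lineage cells and 0.467 for tendon, and macrophages turned to 0.520. At 1 times the mean level they were 5.06 (chondrocytes), 0.298 (erythroid), 3.04 (osteoclasts) and 0.615 (tendon), and at 3 times 6.54 (chondrocytes) and 0.794 (tendon). With 2 UMIs needed for a marker they were 0.668 (B lineage), 2.26 (T or NK), 2.15 (monocytes) and 5.03 (osteoclasts). With 3 markers needed they were 0.293 (erythroid) and 2.56 (reticular), and with 5 markers 0.356 (erythroid), 5.18 (osteoclasts) and 0.820 (tendon). With cells thinned to 1 depth before gating, endothelium turned to 1.05, and erythroid cells were at 0.366, fibroblasts 0.864, macrophages 1.02, stem or multipotent progenitors 2.47 and tendon 0.881. With at least 1000 genes per cell, B-lineage cells were at 0.657, erythroid cells 0.286, macrophages 1.03, neutrophils 0.479 and tendon 0.620, and without the 6% of cells with the most UMIs osteoblasts were at 15.8 and reticular cells at 6.79.

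Counts of genes past 2-fold moved by over 1.5 times as follows. Over the whole libraries they were 558 higher and 651 lower with at least 500 UMIs, and 2586 and 8150 with no minimum. With the class median set to equality they were 315 and 598 (erythroid), 120 and 250 (granulocyte progenitors), 243 and 320 (neutrophils), 439 and 430 (osteoblasts) and 218 higher (pericytes), and without hemoglobin 717 and 406 (erythroid). With 3 markers needed, osteoblasts had 573 higher and 363 lower and stem or multipotent progenitors 281 lower. Without the level condition T or NK cells had 200 and 104, tendon 127 and 513, erythroid cells 950 higher, monocytes 262 higher, osteoclasts 146 higher, chondrocytes 784 lower and stem or multipotent progenitors 260 lower. The hemoglobin list turned to 0.78 in osteoblasts with 5 markers, to 0.22 there and 0.40 in T or NK cells without the level condition, and to 0.049 in fibroblasts among cells with Xist only. The cause of these moves was not tested. Of 930 alternative values of list medians 888 differed little, 38 moved and 4 turned, and of 187 share ratios 144, 41 and 2 did. A list median could turn only if its main value was past 1.5-fold, and a share ratio only if its counting interval excluded equal shares. The alternatives with no level condition, another level factor, no top cell of a gene or cells with Xist only were chosen after seeing the data.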

Other observations

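Many cells left without a class carried transcripts of Prg4 on both days. At least 2 UMIs of Prg4, which encodes the lubricant lubricin of articular and synovial surfaces, were found in 38.8% of the 3617 unassigned day 10 cells and in 32.6% of the 4476 unassigned day 12 cells, and its level there was 2818 and 2788 CPM, against 307 and 666 CPM in the other cells. Cilp2, a cartilage matrix protein gene, reached 2 UMIs in 14.1% and 21.4% of them, and Il1b in 1.80% and 13.2%. Acta1, the actin of skeletal muscle, reached 2 UMIs in 8 day 10 cells (0.221%, 0.0955 to 0.435) and 17 day 12 cells (0.380%, 0.221 to 0.607), with 405 of its 1632 day 12 UMIs in 1 cell. Csf3r was at 7.46 and 56.5 CPM, Msmp reached 2 UMIs in 6.66% and 1.72% of unassigned cells, and Hbegf, an EGF-family ligand, in 7.58% and 3.95%. Of the unassigned cells 42.7% and 44.3% had 3 markers of a class on, 1 short of the number needed.

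Zfp981, a zinc finger gene, was higher on day 12 in classes as different as macrophages (5.71 and 99.4 CPM), B-lineage cells (18.1 and 89.4 CPM) and osteoclasts (5.70 and 71.7 CPM). Across the 5426 genes measured in every class whose longest transcript length could be matched, the median log2 ratio was 0.08 in the 543 genes of at most 1404 bases and 0.26 in the 543 genes of at least 7634 bases. Of the short genes 23 were 1.5-fold higher and 49 lower, and of the long genes 23 and 1.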
